A study of Mus musculus with 15 samples.

Results

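Trrap, its kinase relatives and their chaperone genes were followed by name in cultured adult neural stem cells (aNSCs) of the mouse. They are Trrap itself, the 5 kinases Atm, Atr, Prkdc, Mtor and Smg1 of the same protein family, and Telo2, Tti1 and Tti2, 9 of the 53801 genes counted. The choice was made by gene name. All 9 passed the filter on low counts in each of the 3 comparisons.

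Poly(A) RNA was counted in 15 cultures of subventricular zone cells, which grew in suspension with EGF and bFGF. The mice were 2 months old, of the strain labelled C57BL6/J-129sv, and every culture carried the Rosa26-CreERT2 transgene, whose Cre becomes active when 4-hydroxytamoxifen (4-OHT) is added. The Fl/+ untreated group held 5 cultures with 1 floxed Trrap allele and no 4-OHT. The Fl/+ 4-OHT group held cultures of the same 5 mice (19, 24, 26, 35 and 36) taken 5 days after the start of 4-OHT, and the Fl/Fl 4-OHT group held cultures of 5 other mice (27, 28, 29, 37 and 39), with both Trrap alleles floxed, after the same treatment. The treated Fl/+ cultures could thus also lose 1 allele, and in the step from untreated to treated Fl/+ cultures the drug, Cre activity and the loss of 1 allele cannot be told apart. There were no untreated Fl/Fl cultures. Each library held 25720034 to 32187097 assigned counts.

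PIKKs are very large serine/threonine kinases that are related in sequence to lipid kinases. ATM answers DNA double-strand breaks, ATR answers stalled replication forks, and the product of Prkdc, DNA-PKcs, works in end joining. mTOR controls growth in response to nutrients, and SMG1 phosphorylates UPF1 in nonsense-mediated mRNA decay (NMD). TRRAP has the fold of a PIKK but no kinase activity, and serves as a scaffold subunit of the SAGA and TIP60 histone acetyltransferase complexes. TELO2, TTI1 and TTI2 form the TTT complex, which works with HSP90 and the R2TP co-chaperone in folding newly made PIKKs and keeping them stable. In neural stem cells, which divide in culture, these kinases act at replication, repair and growth control.

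The sequence just upstream of the RefSeq start of transcription is shown for 5 members, so that members lower and members higher can be read side by side. They are those with a RefSeq promoter entry whose level passed the test in at least 1 comparison with the Fl/Fl 4-OHT group. Each line gives the 250 bases before the start, 5′ to 3′ on the strand of the gene, from RefSeq on GRCm38.p6. Capitals mark GGGCGG (the GC box) and CCAAT (the CCAAT box), on either strand. The windows are chr5:144768544-144768793 (+) for Trrap, chr9:53536672-53536921 (-) for Atm, chr7:118243638-118243887 (-) for Smg1, chr2:158028435-158028684 (-) for Tti1 and chr4:148448332-148448581 (+) for Mtor.
Trrap: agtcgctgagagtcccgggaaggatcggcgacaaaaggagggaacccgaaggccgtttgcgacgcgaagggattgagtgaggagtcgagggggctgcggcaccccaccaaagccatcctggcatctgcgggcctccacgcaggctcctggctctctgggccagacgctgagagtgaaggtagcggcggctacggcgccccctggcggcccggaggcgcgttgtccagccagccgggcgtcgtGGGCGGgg
Atm: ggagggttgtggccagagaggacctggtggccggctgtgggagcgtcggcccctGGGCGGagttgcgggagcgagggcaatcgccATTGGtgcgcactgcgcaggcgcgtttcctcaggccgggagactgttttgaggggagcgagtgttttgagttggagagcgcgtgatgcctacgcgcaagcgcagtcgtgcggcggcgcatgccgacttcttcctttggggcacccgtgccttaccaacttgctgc
Smg1: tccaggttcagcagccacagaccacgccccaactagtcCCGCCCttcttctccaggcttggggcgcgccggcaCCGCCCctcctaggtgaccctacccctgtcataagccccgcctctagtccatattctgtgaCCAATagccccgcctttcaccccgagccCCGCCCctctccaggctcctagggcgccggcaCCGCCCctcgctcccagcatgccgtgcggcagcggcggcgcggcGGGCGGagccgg
Tti1: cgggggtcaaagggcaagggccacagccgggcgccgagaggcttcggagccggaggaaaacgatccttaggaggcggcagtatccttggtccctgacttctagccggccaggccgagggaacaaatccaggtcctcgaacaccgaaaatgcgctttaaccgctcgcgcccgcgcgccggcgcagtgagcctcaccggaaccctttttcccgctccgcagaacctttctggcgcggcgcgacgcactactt
Mtor: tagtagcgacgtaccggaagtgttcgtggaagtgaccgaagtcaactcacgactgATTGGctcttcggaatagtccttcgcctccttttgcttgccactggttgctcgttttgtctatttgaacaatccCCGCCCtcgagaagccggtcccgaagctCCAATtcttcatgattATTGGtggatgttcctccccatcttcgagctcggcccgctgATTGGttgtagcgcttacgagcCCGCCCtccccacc

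The Smg1 window held 5 GC boxes and 1 CCAAT box, the Atm window 1 of each, and the Mtor window 2 GC boxes and 4 CCAAT boxes. The Trrap window held 1 GC box, which begins 8 bases before the RefSeq start. The gene annotation matched to the counts starts Trrap further upstream, at chr5:144767732, so this window lies within the gene as annotated there. The starts of Atm and Smg1 in that annotation lie within their windows. Neither motif was found in the Tti1 window, and G or C made up 64.8% of its bases, against 69.6% for Trrap and 54.4% for Mtor. Of 32851 windows of the same length in the RefSeq table, 32.7% held a GC box and 33.8% a CCAAT box. A match describes letters in this window and is not a binding site.

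Before the results, a few libraries need naming. The library labelled Fl/Fl 39, from a female by its label, had 0.313 CPM (counts scaled to library size) of the X-inactivation RNA Xist and 213 CPM summed over 4 Y-linked genes, the pattern of the male libraries. In Fl/Fl 29, a male, that Y-linked sum was 106 CPM, where the other 8 male libraries lay between 177 and 235 CPM. In the male Fl/+ 36, Xist stood at 74.7 CPM after 4-OHT and at 5.89 CPM before. Whether these cultures were mixed or mislabelled was not tested. The tests of the 9 genes and the list counts of the deletion are also given without them, and the genes most like Trrap only with them. All 10 neural stem cell markers had a median of at least 1 CPM in each group, with Nes (nestin) between 489 and 1383 CPM. Of the microglial markers, Aif1, Cx3cr1 and Ptprc, and of the endothelial markers, Cdh5 and Cldn5, had at most 3 counts in every library, while the microglial P2ry12 reached 1.04 CPM in the Fl/Fl cultures and the endothelial Kdr ran from 4.12 to 8.01 CPM over the libraries. Neuronal, astrocyte and oligodendrocyte markers were present, with summed levels of 591 to 1163 CPM (8 genes), 2678 to 6332 CPM (6 genes) and 2583 to 4817 CPM (9 genes). Map2 alone gave 512 to 968 CPM of the neuronal sum, with Syt1 at 0.977 to 3.67 CPM, and Olig1 gave 1453 to 2761 CPM of the oligodendrocyte sum, while no untreated library had more than 3 counts of Mog. In these bulk samples, fewer cells of a type and less RNA per cell cannot be told apart.

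Levels between genes were compared in CPM per kilobase of mRNA (the transcript with the longest coding sequence), a scale on which long and short genes can be set side by side. Their order depends on the length used, so it is also given per kilobase of all annotated exons. In the untreated Fl/+ cultures and per kilobase of mRNA, Trrap and Mtor had the highest means of the 9, at 15.3 ± 1.15 and 14.9 ± 0.809 CPM per kilobase (SD, n = 5), and their ranges overlapped. Tti1 (10.5 ± 1.07) and Telo2 (9.55 ± 1.09) came next and overlapped each other, but lay below Mtor in every library. Tti2 (6.07 ± 0.769) and Smg1 (5.24 ± 0.875) overlapped, as did Smg1 with Atm (3.599 ± 1.23) and Atm with Atr (3.41 ± 0.751). Prkdc had the lowest mean on this scale, at 2.00 ± 0.345 CPM per kilobase of mRNA, with no overlap with Atr. Per kilobase of all exons, by contrast, Trrap (9.11 ± 0.683) lay below Mtor (12.6 ± 0.686) without overlap and overlapped Tti1 (9.69 ± 0.996), while Telo2 (4.21 ± 0.480) lay below all 3. Atr, at 1.17 ± 0.257 CPM per kilobase of all exons, was then below Prkdc (1.91 ± 0.331), again with no overlap, so which of these 2 genes is lower turns with the length.

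In the Fl/Fl 4-OHT cultures, per kilobase of mRNA, Mtor led at 18.7 ± 0.844 CPM per kilobase, followed without overlap by Tti1 at 15.0 ± 0.828 (SD, n = 5). Trrap stood at 8.41 ± 1.95 CPM per kilobase, and its range overlapped that of Telo2 at 8.44 ± 0.595, while Prkdc had the lowest mean at 2.34 ± 0.208. Per kilobase of all exons Mtor (15.8 ± 0.715) and Tti1 (13.9 ± 0.768) again led. Trrap, at 3.97 to 6.80 there, then ran mostly above Telo2, at 3.44 to 3.99, and Atr (1.29 to 1.76) lay below Prkdc (2.05 to 2.58).

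**Figure D1:**
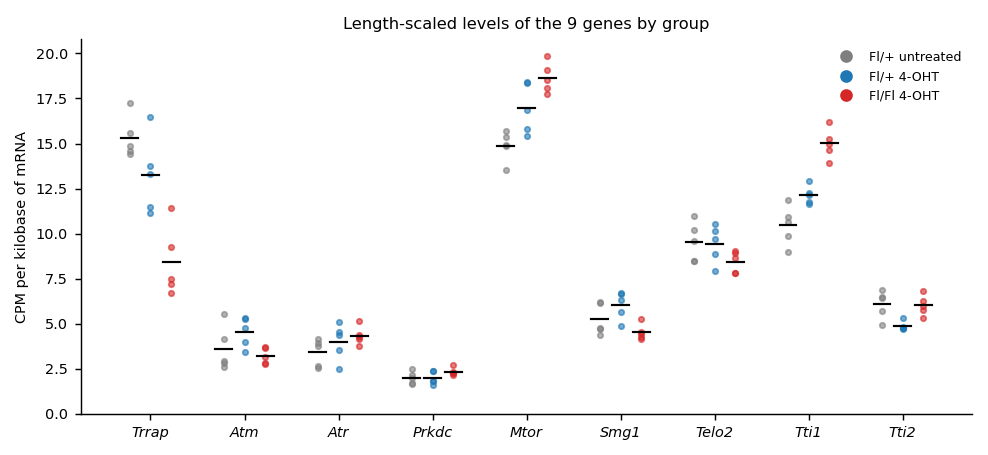
Levels of the 9 genes in CPM per kilobase of mRNA (y axis) by gene (x axis), with a point per library, coloured by group, and a bar at the mean of 5 libraries. The mean of Trrap is 15.3 in the untreated Fl/+ and 8.41 in the Fl/Fl 4-OHT cultures, that of Mtor is 14.9 and 18.7, with Trrap above Mtor in 2 of 5 untreated libraries, and Prkdc has the lowest mean in each group on this scale, where per kilobase of all exons Atr has it.

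The question of the Trrap deletion was put by comparing Fl/Fl 4-OHT with Fl/+ 4-OHT cultures. Of the 9 genes, 5 passed the test (edgeR's quasi-likelihood test, adjusted p under 0.05): Trrap, Atm and Smg1 were lower, and Tti1 and Tti2 were higher. Among all 15036 genes tested, 31.7% were called, 16.8% higher and 15.0% lower, so a called member was no rare event in this comparison. The median log2 fold change of the 9 members was 0.13, against 0.02 over all genes tested. Without the library labelled Fl/Fl 39 the same 5 members passed. With the libraries of mice 29, 36 and 39 left out together, which leaves 3 against 4, only Trrap passed and the genes called fell from 4773 to 2384.

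Trrap, the targeted gene, was at 138, 204, 171, 165 and 142 CPM in the Fl/+ 4-OHT cultures of mice 19, 24, 26, 35 and 36. It was at 92.9, 115, 142, 89.2 and 82.8 CPM in the Fl/Fl 4-OHT cultures of mice 27, 28, 29, 37 and 39. The Fl/Fl cultures were lower except that Fl/Fl 29 reached the level of the lowest Fl/+ cultures, so the groups overlapped. The log2 fold change was -0.64 (SE 0.160, edgeR adjusted p = 0.0115), a level 0.642 times that of the treated Fl/+ cultures, and an exact permutation test gave a two-sided p of 0.0159. The value was -0.79 without Fl/Fl 29 and -0.58 without the library labelled Fl/Fl 39 (edgeR adjusted p = 0.00290 and 0.0243). Counts were summed over all exons of Trrap, which includes RNA from recombined alleles wherever it is still made, and the ratio is not the share of undeleted alleles.

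Atm was at 46.5, 39.2, 33.5, 51.5 and 51.9 CPM in the Fl/+ 4-OHT cultures (mice 19, 24, 26, 35 and 36) and at 30.8, 36.3, 26.8, 27.8 and 35.8 CPM in the Fl/Fl 4-OHT cultures (mice 27, 28, 29, 37 and 39). Only Fl/+ 26 lay within the Fl/Fl range. The log2 fold change was -0.48 (SE 0.135, edgeR adjusted p = 0.0186). Smg1, the NMD kinase, was at 87.7, 98.2, 76.1, 105 and 104 CPM in the Fl/+ and at 66.0, 81.4, 64.8, 70.3 and 68.7 CPM in the Fl/Fl 4-OHT cultures. Here too only Fl/+ 26 fell below the highest Fl/Fl library, Fl/Fl 28. The log2 fold change was -0.41 (SE 0.0959, edgeR adjusted p = 0.00844). Without mice 29, 36 and 39, Atm stood at -0.43 and Smg1 at -0.34 (edgeR adjusted p = 0.104 and 0.101).

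The other 3 kinases did not pass. Mtor was at 132 to 158 CPM in the Fl/+ and at 152 to 170.1 CPM in the Fl/Fl 4-OHT cultures, with a log2 fold change of 0.15 (SE 0.0714, edgeR adjusted p = 0.130). Prkdc was at 20.3 to 29.8 and at 27.1 to 34.0 CPM (0.25, SE 0.119, adjusted p = 0.127). Atr was at 20.3 to 41.3 and at 30.4 to 41.5 CPM (0.13, SE 0.167, adjusted p = 0.591), and its fitted value was -0.01 when Fl/+ 26, the lowest library, was left out. The SE of Atr was the largest of the 9 in this comparison.

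Of the 3 TTT genes, Tti1 and Tti2 were called. Tti1 was at 49.4, 44.6, 46.4, 45.0 and 46.9 CPM in the Fl/+ and at 58.4, 57.4, 62.0, 53.4 and 56.1 CPM in the Fl/Fl 4-OHT cultures. Every Fl/Fl library was above every Fl/+ library, with a log2 fold change of 0.32 (SE 0.0636, edgeR adjusted p = 0.00359). Tti2 was at 19.5, 19.9, 19.99, 22.1 and 19.9 CPM in the Fl/+ and at 24.9, 28.4, 26.1, 22.2 and 24.1 CPM in the Fl/Fl 4-OHT cultures. The groups again did not overlap, although Fl/Fl 37 and Fl/+ 35 were nearly level, and the log2 fold change was 0.32 (SE 0.0875, edgeR adjusted p = 0.0162). Tti1 and Tti2 were the 2 members without overlap, a pattern shown by 22.6% of all genes tested, and the exact permutation p of 0.00794 is the smallest that 5 against 5 libraries allow. Telo2 was at 28.0 to 37.3 and at 27.5 to 31.95 CPM, with a log2 fold change of -0.15 (SE 0.0915, adjusted p = 0.248).

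Without mice 29, 36 and 39, Tti1 stood at 0.28 and Tti2 at 0.31 (edgeR adjusted p = 0.0504 and 0.110). The exons of Tti2 share 882 bases with Mak16 on the opposite strand, which had 1712 to 2459 counts a library, and the authors counted by strand.

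**Figure D2:**
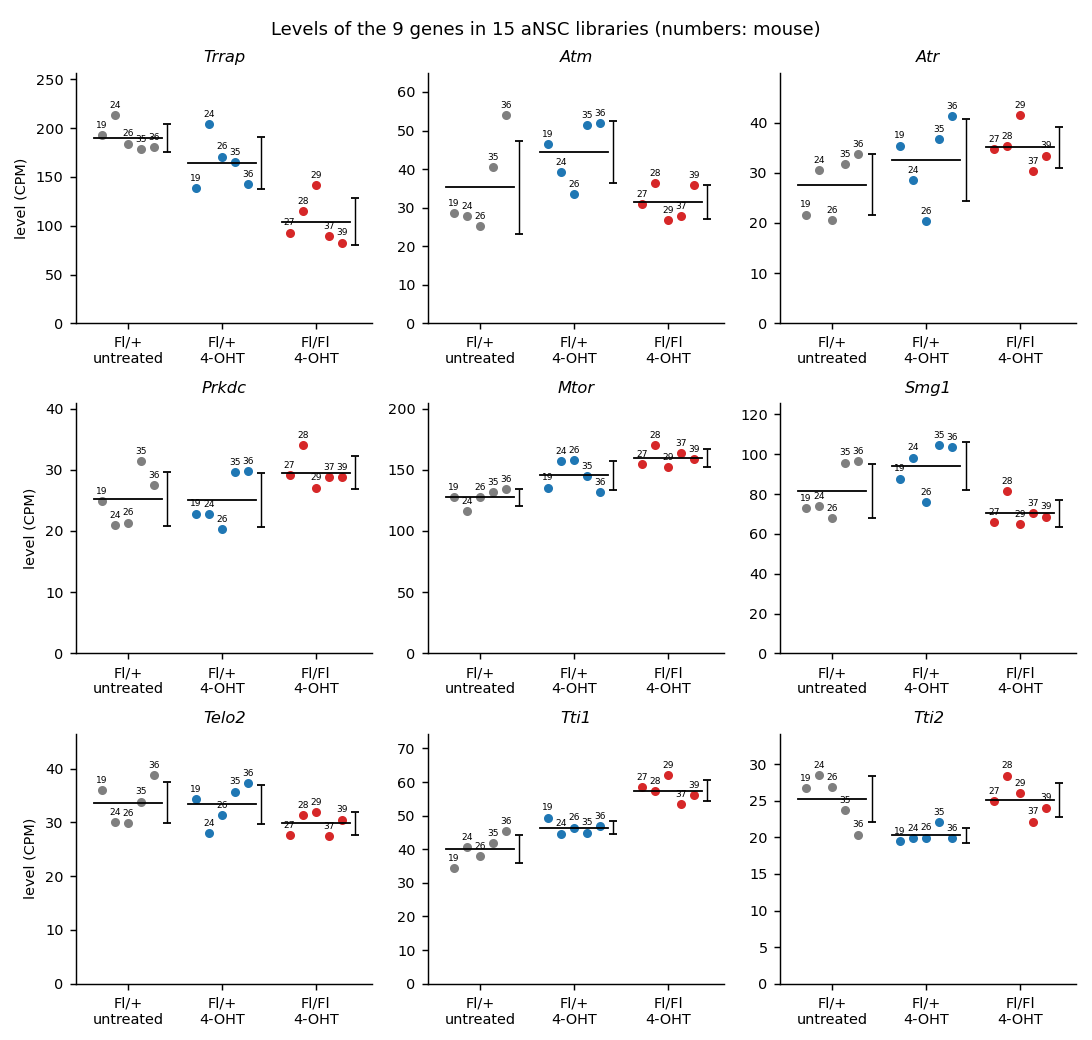
Levels in CPM (y axes, from 0) of the 9 genes in each library, by group, with the mouse number above each point, a line at the mean and a bar for the SD (n = 5). Trrap, Atm and Smg1 lie lower and Tti1 and Tti2 higher in the Fl/Fl than in the Fl/+ 4-OHT cultures, and Tti1 lies above every Fl/+ library.

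The effect of 4-OHT was read by comparing treated and untreated Fl/+ cultures. No member passed the unpaired test (edgeR's quasi-likelihood test), where 13.8% of 14821 genes were called. At an unadjusted p under 0.05 there were 3 of 9, near the 29.4% of all genes at that threshold: Mtor, Tti1 and Tti2. Their exact permutation p values, which ignore the pairing of cultures by mouse, were 0.0159, 0.0238 and 0.0159. The paired exact sign-flip test gave 0.125 for Mtor and 0.0625, the smallest possible, for Tti1 and Tti2. DESeq2 called 1, Tti2 (adjusted p = 0.0205), where it called 20.1% of all genes. No member had groups without overlap, against 12.0% of all genes tested. The median log2 fold change of the members was 0.19, against -0.01 over all genes.

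Since cultures of the same mouse stood in both groups, the mouse number was also fitted as a replicate block. Atm then passed, with a log2 fold change of 0.38 (SE 0.109, edgeR adjusted p = 0.0347), against 0.34 (SE 0.214, adjusted p = 0.319) without the block, and 25.7% of all genes were called. Untreated Atm levels were 28.6, 27.8, 25.1, 40.6 and 54.0 CPM for mice 19, 24, 26, 35 and 36, and treated levels 46.5, 39.2, 33.5, 51.5 and 51.9 CPM. Atm was higher after 4-OHT in 4 of 5 mice, by 0.69, 0.49, 0.40 and 0.34 on the log2(CPM + 0.5) scale, and differed by -0.06 in mouse 36. Without mouse 36 the paired fit gave 0.49 (SE 0.0962, adjusted p = 0.0110). Mice 35 and 36 had the highest Atm and the highest Smg1 in both groups.

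Trrap was lower after 4-OHT in 5 of 5 Fl/+ mice, with differences of -0.48, -0.06, -0.11, -0.12 and -0.34 for mice 19, 24, 26, 35 and 36. Its untreated levels of 193, 214, 184, 179 and 181 CPM gave a log2 fold change of -0.21 (SE 0.110, edgeR adjusted p = 0.234) and, with the replicate block, of -0.22 (SE 0.0832, adjusted p = 0.0838). Tti2 was lower in 5 of 5 mice and Smg1 and Tti1 were higher in 5 of 5, each with an exact sign-flip p of 0.0625, the smallest that 5 pairs allow. Tti2 stood at 26.7, 28.5, 26.9, 23.8 and 20.4 CPM before 4-OHT, with a log2 fold change of -0.31 (SE 0.108, edgeR adjusted p = 0.0769). In the paired fit without mouse 36, Tti2 stood at -0.38 (SE 0.107, adjusted p = 0.0374). In the unpaired fit without untreated Fl/+ 36, whose Tti2 was the lowest of its group, the value was also -0.38 (adjusted p = 0.0229). Smg1 stood at 0.21 (SE 0.128, adjusted p = 0.302) and Tti1 at 0.22 (SE 0.0866, adjusted p = 0.119). Prkdc (-0.01) and Telo2 (-0.01) were near 0, and Atr (0.23, SE 0.204) and Mtor (0.19, SE 0.0774) were not called (edgeR adjusted p = 0.983, 0.952, 0.481 and 0.121).

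**Figure D3:**
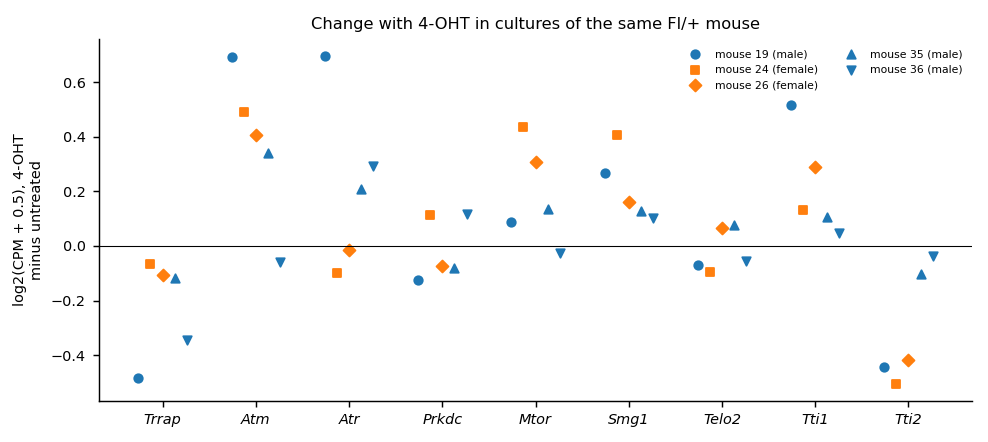
Difference in log2(CPM + 0.5) between the treated and the untreated culture of each Fl/+ mouse (y axis) for the 9 genes (x axis), with a marker per mouse and colour by labelled sex. Trrap and Tti2 lie below 0 and Smg1 and Tti1 above 0 in 5 of 5 mice, and Atm is above 0 in 4 of 5.

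Fl/Fl 4-OHT cultures were also set against the untreated Fl/+ cultures, which joins deletion and treatment and shares libraries with each of the other comparisons. Of the 9 members, 3 were called, where 30.7% of 15032 genes were: Trrap at -0.85 (SE 0.142, edgeR adjusted p = 0.00139), Mtor at 0.34 (SE 0.0670, adjusted p = 0.00337) and Tti1 at 0.54 (SE 0.0866, adjusted p = 0.00120). The same 3 had groups without overlap, against 23.1% of all genes tested. Untreated levels were 116 to 134 CPM for Mtor and 34.4 to 45.4 CPM for Tti1, below 152 and 53.4 CPM, the lowest Fl/Fl values. The members' median was 0.01 and that of all genes 0.00.

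Side by side, the values of the deletion, the 4-OHT and the joint comparison were 0.32, 0.22 and 0.54 for Tti1 and 0.15, 0.19 and 0.34 for Mtor. For Tti2 they were 0.32, -0.31 and 0.01, so that Fl/Fl 4-OHT cultures (25.1 ± 2.34 CPM) stood at the untreated level (25.2 ± 3.20 CPM) and the treated Fl/+ cultures (20.3 ± 1.04 CPM) below both. For Atm they were -0.48, 0.34 and -0.15, and for Smg1 -0.41, 0.21 and -0.20. In both kinase genes the treated Fl/+ cultures held the highest mean, at 44.5 ± 8.02 CPM for Atm and 94.1 ± 12.0 CPM for Smg1. In the joint comparison neither was called (edgeR adjusted p = 0.616 and 0.204).

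**Figure D4:**
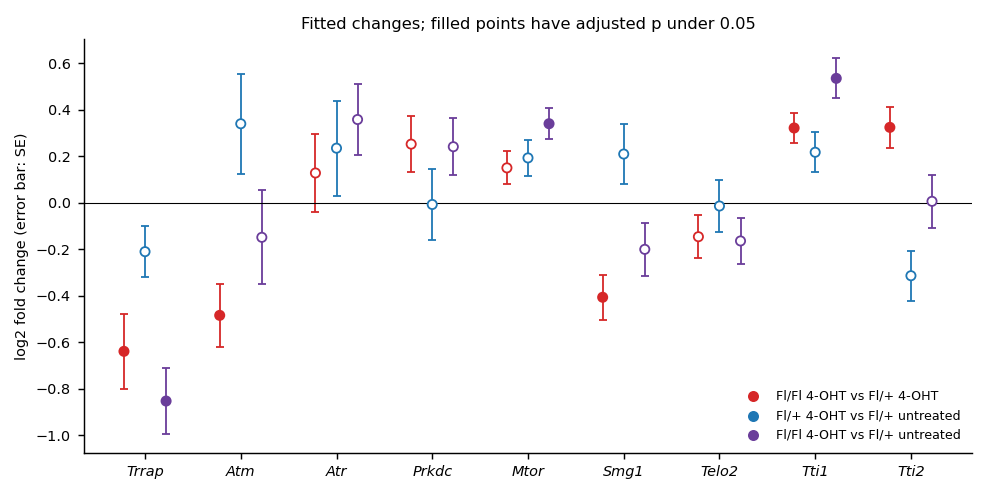
Fitted log2 fold changes (y axis) with their SE for the 9 genes (x axis) in the 3 comparisons, with filled points where the adjusted p is under 0.05. In the deletion Trrap, Atm and Smg1 lie below and Tti1 and Tti2 above 0. In the 4-OHT comparison, fitted without the pairing by mouse, no point is filled, and in the joint comparison Trrap, Mtor and Tti1 are filled.

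The genes that work with the 9 were then described as lists for the deletion (Fl/Fl against Fl/+ 4-OHT). Of 12 co-chaperone genes of the R2TP complex, its prefoldin-like partners and HSP90, which act beside TTT, 1 was higher, 2 were lower and 9 were not called. The median log2 fold change was -0.02, and 31.7% of all genes were called in this comparison. Ruvbl2, an ATPase of R2TP, was lower at -0.37 (SE 0.0788, edgeR adjusted p = 0.00502), as was the HSP90 gene Hsp90ab1 at -0.34 (SE 0.0831, adjusted p = 0.00937). Pdrg1, of the prefoldin-like module, was higher at 0.54 (SE 0.0724, adjusted p = 0.000461).

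Calls among the mTOR partners went both ways. Of 16 genes of both mTOR complexes, their upstream TSC regulators and their S6K and 4E-BP substrates, 4 were higher and 4 lower, and the median was 0.01. Of all genes, 16.8% were called higher and 15.0% lower. Mlst8, a subunit of both complexes, was higher at 0.64 (82.2 against 53.3 CPM, SE 0.0754, edgeR adjusted p = 0.000242). Lower were Tsc1, a part of the TSC complex that holds mTORC1 in check, at -0.37 (SE 0.0675, adjusted p = 0.00220), and Eif4ebp1, the translation repressor that mTORC1 phosphorylates, at -0.89 (27.3 against 51.1 CPM, SE 0.192, adjusted p = 0.00546). These counts of 4 and 4 stood whichever library was left out, and were 2 and 2 without mice 29, 36 and 39, where 15.5% of all genes were called.

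Partners of the DNA damage kinases were read against the 31.7% of all genes called. Of 10 ATM partners, Nbn, a subunit of the MRN complex that brings ATM to breaks, was higher at 0.40 (SE 0.0936, edgeR adjusted p = 0.00782) and 9 were not called. Of 13 ATR partners tested (14 listed), Hus1 was higher at 0.34 (adjusted p = 0.00948) and Rad9a lower at -0.79 (7.16 against 12.5 CPM, adjusted p = 0.000345). Both encode subunits of the 9-1-1 clamp. Of 9 end-joining genes that work with DNA-PKcs, the polymerase gene Poll was higher at 0.63 (43.1 against 28.2 CPM, adjusted p = 0.00111). The medians of the 3 lists were -0.02, -0.07 and 0.08, near the 0.02 of all genes. Without mice 29, 36 and 39, where 15.5% of all genes were called, the counts of higher and lower genes were 1 and 1 for ATM partners, 1 and 1 for ATR partners, 1 and 0 for end joining and 1 and 2 for the co-chaperones. With single libraries left out, 2 ATM partners were higher without Fl/Fl 37 or Fl/+ 26 and 1 was lower without Fl/Fl 39, 2 end-joining genes were higher without Fl/Fl 29, and 2 co-chaperone genes were higher without Fl/Fl 37 or Fl/+ 36.

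The lists tied to NMD followed. In the deletion 16.8% of all genes were called higher and 15.0% lower. Of 9 genes of the NMD machinery that acts with SMG1, Upf3a, a UPF2-binding factor, was higher at 0.63 (94.7 against 61.7 CPM, SE 0.0716, edgeR adjusted p = 0.000192), Smg9, a subunit of the SMG1 kinase complex, at 0.31 (adjusted p = 0.0277), and 7 were not called. The median was 0.09. The count of 2 higher was 1 when any of Fl/Fl 27, 28, 29 or 39 or Fl/+ 19 or 36 was left out, 3 without Fl/+ 26, and 1 without mice 29, 36 and 39. Of 8 transcripts known to be degraded by NMD, 5 were lower, none was higher, and the median was -0.54. The snoRNA host transcripts Zfas1 and Snhg1 were lower at -0.65 (17.7 against 28.0 CPM) and -0.75 (16.8 against 28.7 CPM), and Tbl2 at -0.72 (edgeR adjusted p = 0.00275, 0.00382 and 0.00544). The count of lower transcripts was 4 or 5 with any library left out. It was 1 without mice 29, 36 and 39, where the median was -0.46 and 15.5% of all genes were called.

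Of 23 genes for partners of TRRAP in the SAGA and TIP60 complexes, 6 were higher and 2 lower, with a median of 0.03. This share was near the 31.7% of all genes called. Taf6l, a SAGA subunit, was higher at 0.35 (SE 0.0758, edgeR adjusted p = 0.00564). Tada1, also of SAGA, was lower at -0.32 (adjusted p = 0.00513), and Brd8, a bromodomain subunit of TIP60, at -0.49 (93.4 against 132 CPM, adjusted p = 0.00280). The count of 6 higher is not firm: it was 2 or 3 when any of the libraries Fl/Fl 27, 28, 29 or 39 or Fl/+ 19, 24, 35 or 36 was left out. Without mice 29, 36 and 39, where 15.5% of all genes were called, 0 were higher and 2 lower.

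Proliferation genes moved beside these results. Of 12 such genes, 7 were lower in the Fl/Fl than in the Fl/+ 4-OHT cultures, none was higher, and the median was -0.87. Of all genes tested, 31.7% were called in this comparison, 16.8% higher and 15.0% lower. Mki67 stood at -1.35 (164 against 424 CPM, edgeR adjusted p = 0.00243), Ccna2 at -1.25 (adjusted p = 0.00250) and Birc5 at -1.09 (adjusted p = 0.00358). The summed level of the 12 was 630 to 1400.0 CPM in the Fl/Fl and 1307 to 2113 CPM in the Fl/+ 4-OHT cultures. The lower count was 11 without the library labelled Fl/Fl 39, and 6 without mice 29, 36 and 39, where 15.5% of all genes were called. Against the untreated Fl/+ cultures, 1 of the 12 was lower in the Fl/Fl 4-OHT cultures and none higher, with a median of -0.51. In that comparison 30.7% of all genes were called, and without mice 29, 36 and 39 none of the 12 was. Of the marker lists in this comparison, 4 of 10 neural stem cell markers were lower, 2 of 8 neuronal markers were lower and 1 higher, and none of 6 astrocyte or 9 oligodendrocyte markers was called, nor the 1 microglial and 1 endothelial marker that could be tested. The 2 lower neuronal markers were 1 without any of Fl/Fl 27, 28, 29 or 39 or Fl/+ 19, 26, 35 or 36 and 3 without Fl/+ 24, and 2 astrocyte markers were lower without Fl/Fl 37. Also called were 1 oligodendrocyte marker, lower, without Fl/Fl 37, 1, higher, without Fl/+ 19, and 1 of 2 microglial markers tested, higher, without Fl/+ 26 or Fl/+ 36. Without mice 29, 36 and 39, 1 stem cell and 1 neuronal marker were lower, and 1 of 2 microglial markers tested was higher. In the 4-OHT comparison, where 13.8% of all genes were called, 6 of 9 oligodendrocyte markers were higher, with a median of 1.49. Of 10 neural stem cell markers 2 were higher and 3 lower, of 6 astrocyte markers 1 was higher and 2 lower, and of 8 neuronal markers 0 were called. With the replicate block 25.7% of all genes were called. Of the markers, 2 of stem cells were higher and 4 lower, 2 of astrocytes higher and 2 lower, and 3 of neurons lower. Of the oligodendrocyte markers, 6 were higher and 1 lower. Without mouse 36 in that fit, where 24.0% of all genes were called, no astrocyte marker was higher and 2 were lower. In the unpaired fit Gfap, an astrocyte filament gene, was higher at 3.25 (548 against 57.7 CPM, SE 0.851, edgeR adjusted p = 0.0283). Its treated libraries ran from 63.7 to 1279 CPM and its untreated ones from 14.5 to 108 CPM, so the groups overlapped. The 2 lower astrocyte markers were S100b at -1.91 and Gja1 at -0.58 (adjusted p = 0.0187 and 0.0286). Hes5, a Notch target, was lower at -1.87 (20.1 against 73.5 CPM, adjusted p = 0.00517). The part of these shifts in the values of the 9 genes was not tested.

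**Figure D5:**
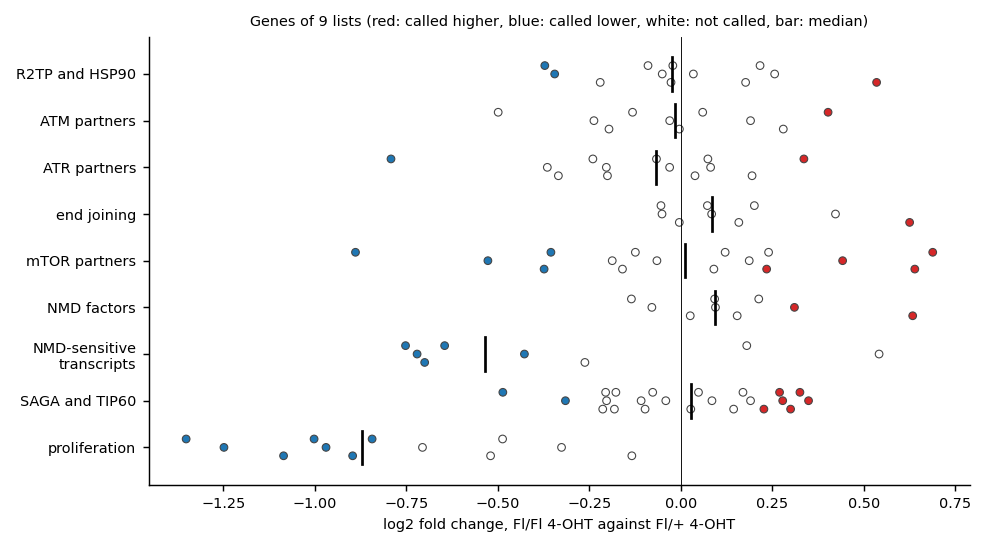
Log2 fold changes of Fl/Fl against Fl/+ 4-OHT cultures (x axis) for the tested genes of 9 lists (y axis), with red for higher, blue for lower, white for not called and a bar at the list median. NMD-sensitive transcripts (median -0.54) and proliferation genes (median -0.87) lie mostly below 0, and the other lists have medians between -0.07 and 0.09.

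With 4-OHT in Fl/+ cultures, 13.8% of all genes were called without and 25.7% with the replicate block, against 31.7% in the deletion. None of 12 co-chaperone genes, 9 end-joining genes, 23 TRRAP partners or 12 proliferation genes passed the unpaired test, against 2, 1, 2 and 4 with the block (edgeR). With the block and without mouse 36, where 24.0% of all genes were called, the counts were 1, 1, 4 and 10. The 4 and the 10 proliferation genes were all higher after 4-OHT. Of the mTOR partners 2 were higher and 1 lower, and the mTORC2 subunit gene Prr5l stood at 1.03 (74.2 against 36.5 CPM, SE 0.162, edgeR adjusted p = 0.00259). Upf3a was lower at -0.30 (SE 0.0675, adjusted p = 0.0154), the only NMD factor called without the block. With it Smg9 was lower as well, at -0.31 (adjusted p = 0.0465), though without mouse 36 1 NMD factor was lower, and 3 mTOR partners were higher and 1 lower. Among the NMD-sensitive transcripts Tbl2 was higher at 0.73 (adjusted p = 0.0103) and Zfas1 lower at -0.57 (adjusted p = 0.0266). Trp53bp1, an ATM substrate at breaks, was higher at 0.36 (adjusted p = 0.00597), as was Rad9a at 0.57 (adjusted p = 0.0264), each the only called gene of its list. With the block, 3 ATM partners were higher and 1 lower, and 2 ATR partners were higher (5 without mouse 36).

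Genes that start close to a member on the other strand were read next, as they share the sequence between both starts. Tti1 and Rprd1b, a regulator of RNA polymerase II, start 64 bases apart, and Rprd1b was at 0.19 in the deletion (SE 0.0680, edgeR adjusted p = 0.0552) and higher at 0.31 in the joint comparison (SE 0.0836, adjusted p = 0.0155), where Tti1 was at 0.54. Atm and Npat, a histone gene activator, start 307 bases apart. Npat stood at 41.4 CPM in the Fl/Fl and 41.8 CPM in the Fl/+ 4-OHT cultures (0.00, SE 0.102, adjusted p = 0.996), while Atm was lower. Prkdc and Mcm4, which encodes a subunit of the replicative helicase, start 466 bases apart, and Mcm4 was at -0.28 in the deletion (SE 0.192, adjusted p = 0.284).

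The genes whose pattern was most like that of Trrap, of the 9991 whose mean reached 10 CPM, were Tet2, Sox5, Spats2l, Peli1 and Faap100. Their Pearson r of log2(CPM + 0.5) with Trrap over the 15 libraries was 0.944, 0.936, 0.934, 0.933 and 0.926, given as a description, since the libraries share groups and mice. Tet2, a DNA demethylation enzyme, had means of 47.3, 44.6 and 28.9 CPM in the untreated Fl/+, treated Fl/+ and Fl/Fl cultures, and Sox5, a transcription factor, had 83.1, 66.5 and 41.5 CPM. Among the other 8 members, none came near these values: their r with Trrap ran from -0.778 for Tti1 to 0.404 for Smg1. Taken as deviations from the group means, which is given for the members only, r ran from -0.371 for Atm to 0.451 for Tti2. It was 0.0697 for Tti1 and -0.0969 for Smg1.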

How the data were processed

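Poly(A) RNA of 15 aNSC cultures in 3 groups of 5 was analysed, with groups, mice, sex and days taken from the labels. The authors sequenced stranded libraries, aligned reads to GRCm38 with STAR 2.5.4b and assigned unique reads to Ensembl 92 genes with featureCounts 1.5.0 by strand (study's methods and submitters' processing notes). The authors deposited these counts unnormalized. PCR copies could not be removed from the counts, and multi-mapping reads were left out. The labels and the methods differ in the dose of 4-OHT and in how many of the 5 days it was present, so neither is stated.

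Each comparison used its own 10 libraries in edgeR 4.0.16 (R 4.3.3): genes passing filterByExpr with a minimum count of 10, TMM scaling, the quasi-likelihood test without covariates, and Benjamini-Hochberg adjustment over all genes tested, called under 0.05. The fit was tested on simulated data. CPM used TMM factors over all 15 libraries. Exact two-sided permutation (252 arrangements) and sign-flip tests (32) used log2(CPM + 0.5). IDs were matched to GENCODE M21 (95 unmatched). With at least 506 counts of each member in each library, counting error was below the spread between cultures (for Tti2 in Fl/+ 4-OHT, 4.14% against 5.11%).

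Same-mouse Fl/+ cultures deviated together (r of 0.204 to 0.606 over 5 pairs, against -0.514 to 0.339 for 20 pairs of different mice), so the mouse number pairs them.

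The members, 9 pathway lists and 6 marker lists were chosen with earlier results of these data known. Named were all members, up to 3 called genes per list with the smallest adjusted p, genes starting within 1000 bases on the other strand where they were expressed, and the 5 genes most like Trrap. Alternatives were DESeq2 1.42.0, its size factors, library size alone, other count filters, a shared dispersion, sex and mouse-series covariates, other pseudocounts, the replicate block and leaving out each library. Leaving out mice 29, 36 and 39, the replicate block without mouse 36, sex as a covariate without Fl/Fl 39, and the length of all exons, were chosen after seeing the data.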

Additional observations from a re-analysis of the deposited data

Results flagged for a closer look

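In the Fl/+ 4-OHT group, Tti2 was at 22.1 CPM in the culture of mouse 35, set apart from the other 4, of which the nearest was at 19.99 CPM. By Dixon's ratio this culture stands away from its group (ratio 0.825, critical value 0.71). Of 27 such groups of 5 examined for the members, this was the only 1 so marked, and chance marks about 1 in 20.

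The response of Atr to 4-OHT went opposite ways by labelled sex in the Fl/+ mice: it was higher in the 3 males (0.70, 0.21 and 0.29 on the log2(CPM + 0.5) scale) and lower in the 2 females (-0.10 and -0.02), a difference of 0.456 between the sexes. The difference was not tested, and 1 of the females moved by only -0.02. Of the males, mouse 36 (0.29) is the animal with Xist in its treated culture.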

How the results depend on the processing

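In the deletion comparison, Trrap was called under all 20 alternatives (-0.79 to -0.55). Atm was called in 18 of 20 (edgeR adjusted p = 0.0685 with the dispersion shared over all 15 libraries) and Smg1, Tti1 and Tti2 in 19 of 20; the fit without mice 29, 36 and 39 lost all 4 calls, leaving 1 member and 2384 genes called, from 3 against 4 libraries. Mtor was called with library size alone (adjusted p = 0.0460). With any library left out 5 members were called, and Atr ranged from -0.012 to 0.21.

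In the 4-OHT comparison 2044 genes and 0 members were called. With each library left out in turn the genes numbered 1271 (without treated Fl/+ 19; 1311 without treated Fl/+ 35) to 2522, and the members 0 to 1. The count of members was 1 with DESeq2 (Tti2), with library size alone (Mtor), with the dispersion of all 15 libraries (Tti2), without mouse 36 (Tti2) and with the replicate block (Atm). The paired fit, with the mouse as a replicate block, called 3809 genes and changed no other member's call; without mouse 36 it called 3578 genes and 2 members (Atm and Tti2), and the mouse-series covariate gave 3170. Prkdc reversed to 0.052 with library size alone and to 0.0095 with at least 10 counts in every library, and ranged from -0.067 to 0.081 over the left-out libraries. Telo2 reversed to 0.043 and 0.0020 under the same settings and ranged from -0.056 to 0.056.

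In the joint comparison Trrap, Mtor and Tti1 were called under all 20 alternatives, Atr was called with library size alone (edgeR adjusted p = 0.0466, 4 members), and 2865 genes were called without mice 29, 36 and 39, against 4620. There Atm reversed to 0.061 and Tti2 to -0.061. Tti2 was also below 0 with DESeq2 (-0.0034), its size factors (-0.0035) and the shared dispersion (-0.0064). Over the left-out libraries Atm ranged from -0.25 to 0.059 and Tti2 from -0.062 to 0.051. The cause of these changes was not tested. Scaling by library size alone moved the share of called genes that were higher from 53.2% to 66.2% for 4-OHT and from 51.0% to 66.3% in the joint comparison.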

Other observations

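In the joint comparison of Fl/Fl 4-OHT with untreated Fl/+ cultures, where 30.7% of all genes were called, 4 of 8 NMD-sensitive transcripts were lower, none was higher, and the list had a median of -0.60 on the log2 scale. Zfas1 stood at -1.22 (17.7 against 41.8 CPM, SE 0.175), Snhg1 at -1.06 (16.8 against 35.4 CPM, SE 0.112) and Atf4, a stress-response transcription factor, at -0.69 (147 against 239 CPM, SE 0.0960; edgeR adjusted p = 0.000639, 0.000124 and 0.000562). Tbl2 stood at 62.7 CPM and 63.0 CPM (0.01), although it was lower in the deletion and higher with 4-OHT. Of 10 ATM partners 3 were higher, a share near that of all genes, Trp53bp1 at 0.42, Rad50 at 0.43 and Nbn at 0.31 (adjusted p = 0.00121, 0.0150 and 0.0203). Rad50 and Nbn encode subunits of the MRN complex, whose other subunit gene Mre11a was not called (0.18, adjusted p = 0.421).

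Of 23 TRRAP partners, 2 were higher and 5 lower in the joint comparison, and of 16 mTOR partners 3 were higher and 2 lower, shares near the 30.7% of all genes called. The higher TRRAP partners were the paralogous acetyltransferase genes Kat2a at 0.37 (138 against 108 CPM, SE 0.0780) and Kat2b at 0.40 (36.1 against 27.6 CPM, SE 0.0809; edgeR adjusted p = 0.00460 and 0.00378). Ing3, a TIP60 subunit, was lower at -0.48 (26.0 against 36.7 CPM, SE 0.116, adjusted p = 0.00931). Among the mTOR partners Mlst8 stood at 0.46, Tsc1 at -0.38 and Rheb, the GTPase that activates mTORC1, at -0.39 (adjusted p = 0.00780, 0.00459 and 0.00193). Without mice 29, 36 and 39, where 18.7% of all genes were called, the counts of higher and lower genes were 0 and 4 for NMD-sensitive transcripts, 2 and 0 for ATM partners, 1 and 3 for TRRAP partners and 1 and 2 for mTOR partners.

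Cell type markers moved in the same comparison, where 30.7% of all genes were called. Of 8 neuronal markers 5 were lower (median -1.26), of 10 neural stem cell markers 5 were lower (median -0.32), of 9 oligodendrocyte markers 6 were higher and 1 lower (median 1.72), and of 6 astrocyte markers 1 was higher and 2 lower (median -0.10). Without mice 29, 36 and 39, where 18.7% of all genes were called, 3 neuronal and 4 stem cell markers were lower. There 4 oligodendrocyte markers and 1 astrocyte marker were higher, and no marker of these lists was called the other way. Their part in the values above was not tested.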
